A study of Mus musculus with 4 samples.

Results

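The 10 genes described here are the endoplasmic reticulum (ER) chaperones and folding enzymes Hspa5, Hsp90b1, Pdia3, Pdia4, Pdia6, Calr and Sdf2l1, and the unfolded protein response genes Herpud1, Dnajb9 and Xbp1. They were chosen by name, with earlier results of these data known, and so were the gene lists used below. All 10 were present among the 13838 genes of the count matrix. Their levels were read in single cells recovered by lung lavage from C57BL/6 mice. The animals had breathed filtered air or Afghanistan particulate matter (APM), a dust, in chambers, on 12 days with 6 hours of exposure each and an APM concentration of 5 mg/m3. From 9 days after the last exposure they were given house dust mite (HDM), an allergen that induces allergic airway inflammation, or the saline vehicle through the nose, with 10 µg per HDM dose. Doses to sensitize were given at day 22 and day 29, challenge doses at day 36, day 37 and day 38, and the lavage was done at day 39. Control mice breathed filtered air and received vehicle, HDM mice breathed filtered air and received HDM, APM mice breathed dust and received vehicle, and HDM+APM mice received both. Every group is a single library made from the joined cells of 7 mice, and no difference between groups has a replicate check. No p-value is given, and every interval below covers counting error only.

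The ER is where secreted and membrane proteins fold. Chaperones hold unfinished chains, protein disulfide isomerases form and rearrange their disulfide bonds, and misfolded chains are returned to the cytosol for degradation. When unfolded protein accumulates, the sensors IRE1, ATF6 and PERK start the unfolded protein response. IRE1 splices Xbp1 messenger RNA into the form that codes for an active transcription factor, and the summed 3' counts used here do not tell spliced from unspliced Xbp1. Alveolar macrophages, the main cells of a lavage, secrete proteins and take up surfactant and particles.

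Hspa5 codes for BiP, the ER chaperone of the HSP70 family, and lies at chr2:34771970-34777547 on the plus strand of mm10 (GENCODE vM21). Hsp90b1 codes for GRP94, the ER member of the HSP90 family, at chr10:86690209-86705509 on the minus strand. Pdia3 at chr2:121413775-121438687, Pdia4 at chr6:47796141-47813430 and Pdia6 at chr12:17266545-17284770 code for protein disulfide isomerases, and Pdia3 works with the lectin chaperones on glycoproteins. Calr, at chr8:84841850-84846934, codes for calreticulin, 1 of those lectin chaperones. Sdf2l1, at chr16:17130138-17132383, codes for a partner of BiP. Herpud1, at chr8:94386438-94395377, codes for a membrane protein of ER-associated degradation. Dnajb9, at chr12:44205559-44210326, codes for ERdj4, a J-domain cochaperone of BiP. Xbp1 lies at chr11:5520659-5525893. All 10 are protein-coding genes.

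Since these genes are known as common targets of ATF6 and XBP1, their promoters were read for the elements of that response. RefSeq (GRCm38.p6) gave a window for each of the 10, running from 250 bases before to 50 bases after the gene's start, and 32851 such windows in all. The ER stress element (ERSE), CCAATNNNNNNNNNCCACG on either strand, was found in 4 of the 10 and in 0.119% of all windows (39 of 32851). A related element, ERSE-II, ATTGGNCCACG, was found in 1 of the 10, Herpud1, and in 0.0365% of all windows. The element UPRE, TGACGTGG, was in none of the 10 and in 0.676% of windows. CCAAT alone, which is part of both longer elements, was in 9 of the 10 and in 37.4% of windows. The 250 bases before the start are shown for the 5 genes with a full element and for Sdf2l1, which has none in its window and had the highest HDM ratio of the 10. They run 5′ to 3′ on the gene's strand, and capitals mark the ERSE or ERSE-II. Hspa5 is read from chr2:34771840-34772089 on the plus strand, Hsp90b1 from chr10:86705445-86705694 on the minus strand, Pdia6 from chr12:17266339-17266588 on the plus strand, Calr from chr8:84846932-84847181 on the minus strand, Herpud1 from chr8:94386179-94386428 on the plus strand and Sdf2l1 from chr16:17132384-17132633 on the minus strand.
Hspa5: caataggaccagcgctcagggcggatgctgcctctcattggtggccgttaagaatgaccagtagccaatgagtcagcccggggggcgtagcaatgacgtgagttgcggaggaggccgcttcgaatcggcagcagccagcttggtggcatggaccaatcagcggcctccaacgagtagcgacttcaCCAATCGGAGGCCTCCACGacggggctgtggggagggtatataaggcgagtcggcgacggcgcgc
Hsp90b1: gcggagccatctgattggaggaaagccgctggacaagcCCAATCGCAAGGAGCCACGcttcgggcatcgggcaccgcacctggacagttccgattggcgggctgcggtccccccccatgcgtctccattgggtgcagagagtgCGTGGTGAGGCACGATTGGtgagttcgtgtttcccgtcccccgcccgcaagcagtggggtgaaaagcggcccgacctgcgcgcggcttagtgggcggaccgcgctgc
Pdia6: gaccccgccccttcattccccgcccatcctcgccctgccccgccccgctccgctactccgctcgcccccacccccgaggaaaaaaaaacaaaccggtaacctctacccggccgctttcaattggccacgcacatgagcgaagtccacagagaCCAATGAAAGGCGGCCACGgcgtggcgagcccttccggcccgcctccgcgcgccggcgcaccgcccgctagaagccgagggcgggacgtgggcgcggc
Calr: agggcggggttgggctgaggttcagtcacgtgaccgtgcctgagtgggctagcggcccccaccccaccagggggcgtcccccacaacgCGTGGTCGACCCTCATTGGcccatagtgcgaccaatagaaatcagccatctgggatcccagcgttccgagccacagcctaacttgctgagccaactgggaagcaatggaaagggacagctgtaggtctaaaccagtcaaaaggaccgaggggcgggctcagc
Herpud1: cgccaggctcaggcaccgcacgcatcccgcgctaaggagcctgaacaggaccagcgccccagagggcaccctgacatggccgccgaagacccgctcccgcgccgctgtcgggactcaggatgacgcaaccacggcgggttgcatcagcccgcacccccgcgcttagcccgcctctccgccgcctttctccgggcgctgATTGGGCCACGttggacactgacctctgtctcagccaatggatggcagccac
Sdf2l1: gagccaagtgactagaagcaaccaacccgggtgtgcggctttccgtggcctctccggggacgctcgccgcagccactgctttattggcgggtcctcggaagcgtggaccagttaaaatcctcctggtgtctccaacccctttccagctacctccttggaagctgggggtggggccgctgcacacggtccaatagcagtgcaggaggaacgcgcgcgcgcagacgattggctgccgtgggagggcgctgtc
Counted from RefSeq's start, the element of Hspa5 ends 47 bases before it and that of Pdia6 ends 80 bases before it. RefSeq and GENCODE place the starts differently: 120 of the bases shown for Hspa5, 65 for Hsp90b1, 44 for Pdia6 and 3 for Calr lie inside the GENCODE gene spans given above. The element of Hspa5, at chr2:34772025-34772043, lies inside that span, and the other elements lie outside theirs. Of the windows not shown, 127 of the bases before the start for Pdia3 and all 250 for Dnajb9 lie inside the GENCODE spans. The window of Dnajb9 thus holds no base before its GENCODE start, and elements there were not looked for. Hsp90b1 carries 2 elements, 1 on each strand. The element of Calr lies on the opposite strand, so it reads CGTGG to ATTGG in the line above. A match describes these letters and shows no binding.

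The libraries ranged from 994 cells (HDM) and 1123 (HDM+APM) to 3890 (APM) and 3918 (control). Their median depths lay between 1380 and 4780 unique molecular identifiers (UMIs, tags that count a captured transcript once), with 2.90 to 4.59% mitochondrial UMIs. Levels are CPM, UMI counts scaled to a fixed total, of the UMIs summed over the cells of 1 of the authors' 17 clusters in 1 library, and a cluster in a library is used as a class when it holds at least 50 cells, which left 26 classes. Doublets were not called here, and 42 barcode sequences occurred in more than 1 library. Macrophage 8, whose coarse label is alveolar macrophage, had Mmp12, Ccl24, Rnase2a and Ccl8 as its leading genes, with Arg1 and no alveolar macrophage marker among its top 10, and is compared by its number. Of the top 10 genes in the cluster named epithelial, 4 are on the red blood cell marker list used here and 2 on the epithelial list. Of the whole lists, 5 of 5 red blood cell and 5 of 7 epithelial markers were highest in this cluster. In the cluster named classical monocyte 2 of the top 10 are on the list of monocyte-derived macrophages and none on that of monocytes. Of the whole lists, 6 of 9 and 3 of 6 genes were highest there. Both clusters are called by the authors' names only. The same holds for B cells 1, led by Fcmr, Ebf1, Ly6d and Cd72. Its top 10 held 1 gene of the plasma cell list (Pou2af1) and none of the 5 B cell markers, of which 2 were highest in this cluster. Macrophage 3 had 1 marker of monocyte-derived macrophages, Ms4a7, and no alveolar macrophage marker there, so the other macrophage clusters are also compared by number or pooled as Macrophages 1 to 7, 9 and 10.

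Macrophage classes held the most RNA of these genes and lymphocytes the least but for the class named epithelial. Summed over the 10, the highest class was Macrophage 8 of the HDM library at 6478 CPM (95% Poisson interval 6247 to 6715), followed by Macrophage 8 of the HDM+APM library at 5777 CPM (5568 to 5993). A gap followed, down to Macrophage 1 of the APM library at 3944 CPM (3690 to 4211). From there to Macrophage 9 of the APM library at 2607 CPM the 17 classes of macrophages and the authors' classical monocytes lay close together, and neighbours in the order mostly had overlapping intervals. The granulocyte-like class of the HDM library stood between, at 1737 CPM, but Xbp1 alone made 857 CPM of this, so its place rests on that gene. T cells and B cells came to 865 to 1096 CPM, and the class named epithelial in the APM library to 584 CPM.

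**Figure D1:**
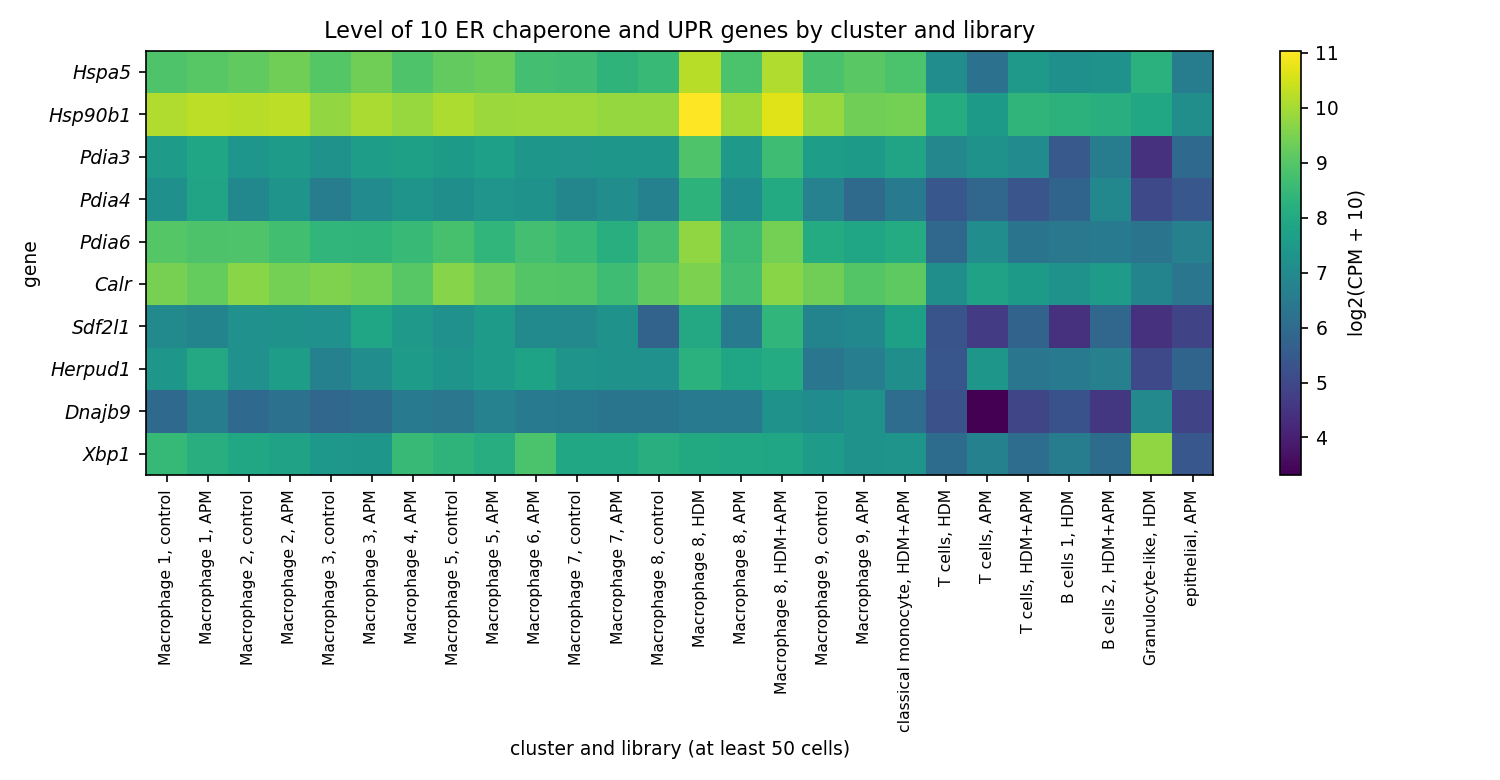
Each cell of the plot is the level of 1 gene (rows) in 1 cluster of 1 library (columns, classes of at least 50 cells), coloured by log2(CPM + 10). The brightest columns for most genes are Macrophage 8 of the HDM and HDM+APM libraries, the columns of T cells, B cells and the class named epithelial are dark, and Xbp1 is brightest in the granulocyte-like class of the HDM library.

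Macrophage 8 of the HDM library was the highest class for 6 of the 10 genes, where 4.73% of the 5666 genes with at least 50 CPM in some class had their maximum. These 6 were Hspa5 at 1171 CPM, Hsp90b1 at 2092, Pdia3 at 473, Pdia4 at 309, Pdia6 at 851 and Herpud1 at 294 CPM. Macrophage 8 of the HDM+APM library was second in each of the 6, with intervals that overlapped for Hspa5, Pdia3, Pdia4 and Herpud1 and did not for Hsp90b1 and Pdia6. Sdf2l1 at 328 CPM and Dnajb9 at 147 CPM had their maximum in Macrophage 8 of the HDM+APM library, the class with the maximum of 1.8% of genes. The next class for Dnajb9 did not differ beyond counting error, Macrophage 9 of the APM library at 147 CPM, a cluster led by the cytosolic heat shock genes Hspa1a and Hspa1b. Calr was highest in Macrophage 2 of the control library at 807 CPM (767 to 849), level with Macrophage 8 of the HDM+APM library at 799 CPM (723 to 882).

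Xbp1, the transcription factor of the response, had another order. It reached 857 CPM (676 to 1073) in the granulocyte-like class of the HDM library, on 76 UMIs of 132 cells, above Macrophage 6 of the APM library at 448 CPM (412 to 487). That granulocyte-like class is shallow, with a median of 648 UMIs per cell, and 17.5% of the 5666 genes had their maximum there. Of the other genes 4 had their lowest level there, as did 10.1% of the 5666 genes: Pdia3 and Sdf2l1 had 1 UMI each, at 11.3 CPM, and Pdia4 and Herpud1 had 2 UMIs each, at 22.6 CPM. The granulocyte-like cells of the other libraries, too few for a class, also held Xbp1, at 738 CPM in 29 APM cells and 456 CPM in 39 HDM+APM cells. Dnajb9 was not seen in T cells of the APM library, with 0 of 62584 UMIs, which allows a level of up to 47.9 CPM at 3 counts.

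Across the 26 classes the genes followed each other. The Pearson correlation of log2(CPM + 10) was positive in 45 of 45 pairs, with a median of 0.766, from 0.142 between Pdia3 and Xbp1 to 0.934 between Hsp90b1 and Calr. No such share was computed for pairs of other genes over these classes, so it is not read as particular to the 10. Against the mean of the other 9, Hsp90b1 was at 0.972 and Pdia6 at 0.947, while Dnajb9 was at 0.626 and Xbp1 at 0.55. The classes share 4 libraries and their clusters resemble each other, so these values describe the classes and carry no p-value. Outside the gene lists used here, Rrbp1 (0.971), Chil3 (0.959), Ctss (0.956), Tbxas1 (0.941) and Sh3bgrl (0.928) had the profiles most like the mean of the 10 over the 26 classes. Rrbp1 codes for the ribosome-binding protein of the rough ER and was at 305 CPM in Macrophage 8 of the HDM library against 48.9 CPM in HDM T cells. Chil3, a secreted chitinase-like protein of activated macrophages, was at 33276 CPM in Macrophage 8 of the HDM library and 4608 CPM in that of the control library.

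Within Macrophage 8, the HDM library had higher levels of chaperones and disulfide isomerases than the control library, in 139 against 110 cells. Between these libraries 7 of the 10 genes were higher and 0 lower past 1.5-fold, where 22.6% of 4024 genes were higher and 15.2% lower. A gene is counted here when its log2 ratio of CPM + 10 lies past 1.5-fold and it has at least 20 UMIs over both libraries. The median log2 ratio was 1.13 over the 10 genes and 0.07 over all genes tested. Summed over the 10, the level was 3026 CPM in control and 6478 CPM in HDM, a ratio of 2.14 (95% interval 1.94 to 2.36).

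Among the chaperones, 3 of 4 were counted as higher. In Macrophage 8, Hspa5 was at 369 CPM in control, 1171 in HDM, 454 in APM and 1091 CPM in HDM+APM. The libraries given HDM were both high and those given vehicle both low, with no overlap of their intervals. HDM over control was 3.18-fold (2.42 to 4.24). Hsp90b1 was at 884, 2092, 968 and 1595 CPM in the same order, with the same split, and HDM over control was 2.37-fold (1.98 to 2.85). Sdf2l1 was at 44.5 CPM in control, on 7 UMIs, 242 in HDM, 77.8 in APM and 328 CPM in HDM+APM. Its HDM over control ratio was 5.43 with a wide interval, 2.55 to 13.8. Calr was at 559, 719, 414 and 799 CPM, and its HDM over control ratio of 1.28 (1.01 to 1.64) did not reach 1.5-fold.

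The 3 disulfide isomerases split the libraries the same way. Pdia3 was at 159 CPM in control, 473 in HDM, 168 in APM and 393 CPM in HDM+APM, a HDM over control ratio of 2.97 (1.96 to 4.70). Pdia4 was at 95.4, 309, 125 and 256 CPM, a ratio of 3.24 (1.90 to 5.95). Pdia6 was at 426, 851, 380 and 681 CPM, a ratio of 2.00 (1.54 to 2.63). For each of the 3, both HDM libraries lay above both vehicle libraries with intervals that did not overlap.

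Of the genes of degradation and signalling, only Herpud1 was counted as higher in this comparison, at 140 CPM in control and 294 in HDM, 2.10-fold (1.33 to 3.47). Its levels in APM, 221 CPM, and in HDM+APM, 260 CPM, were close to each other. Dnajb9 was at 69.9, 78.4 and 80.9 CPM in control, HDM and APM and at 147 CPM in HDM+APM, so that its highest level was in the library given both exposures, with an interval (115 to 185 CPM) that overlapped those of control and APM and not that of HDM. The level of Xbp1 was similar in the 4 libraries, at 280, 248, 233 and 228 CPM with overlapping intervals, and its HDM over control ratio was 0.888 (0.622 to 1.29).

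**Figure D2:**
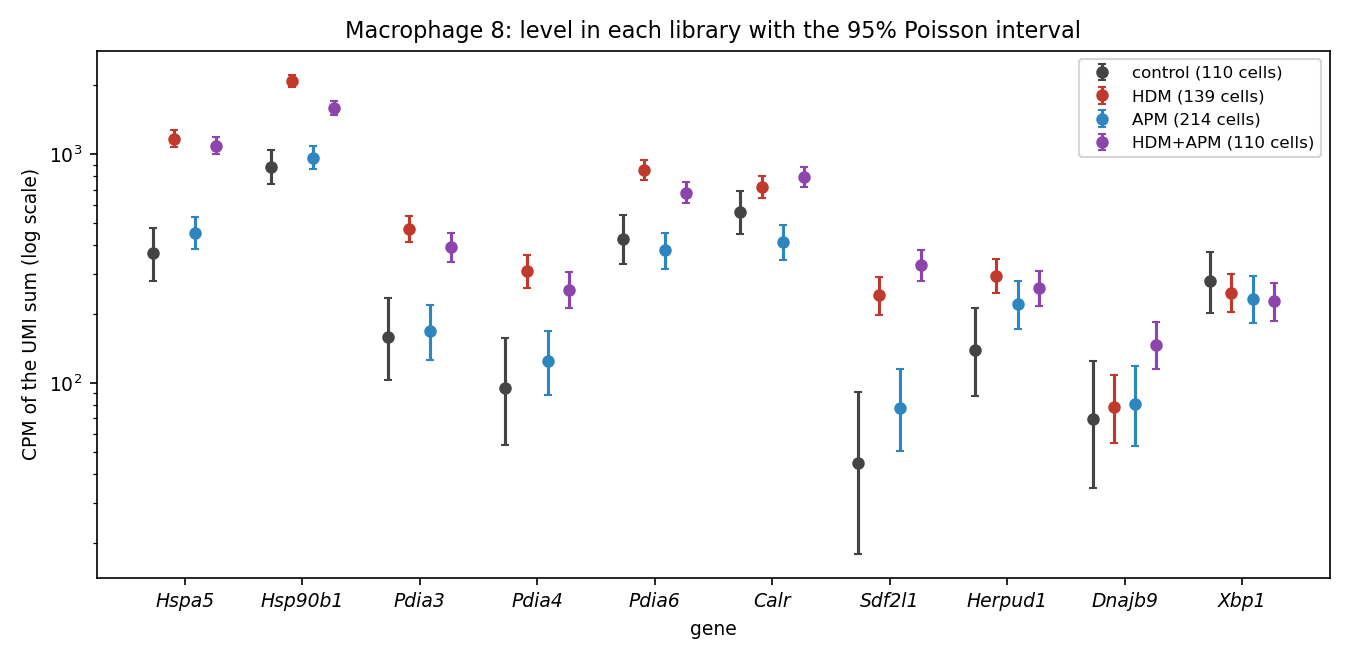
Points are the CPM (log axis) of each gene in Macrophage 8 of each of the 4 libraries, coloured by group, with the 95% Poisson interval of the UMI sum as the bar. For Hspa5, Hsp90b1, Pdia3, Pdia4, Pdia6 and Sdf2l1 the HDM and HDM+APM points lie above the control and APM points, and for Xbp1 the 4 points, from 228 to 280 CPM, lie together.

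Several other values of Macrophage 8 also differed between the HDM and control libraries. The median depth was 3056 UMIs per cell in HDM and 1176 in control, and mitochondrial UMIs were 4.31 and 3.30%. The 7 epithelial markers summed to 16018 CPM in control, of which Scgb1a1, a club cell gene, made 15065 CPM, and to 348 CPM in HDM, while the 5 red blood cell markers summed to 375 and 6195 CPM. The 6 plasma cell markers measured, which belong to a cell type rich in ER, came to 31.8 CPM in control and 87.1 CPM in HDM, with 3 and 2 of the 6 at 0. Without cells of 1% or more epithelial and red blood cell marker UMIs, 109 control and 133 HDM cells remained, the epithelial sums were 1006 and 340 CPM, and the 10 genes were at 3140 and 6567 CPM. With cells thinned to 1000 UMIs each, 7 of the 10 genes were again higher and the median log2 ratio was 1.00, with Hspa5 at 1.19 against 1.64 unthinned and Pdia4 at 0.78 against 1.60. The cytosolic heat shock gene Hspa1a was at 1182 CPM in control and 19.6 CPM in HDM, and its part in these differences was not tested.

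The same comparison in dust-exposed mice, HDM+APM over APM in Macrophage 8 (110 and 214 cells), gave 8 of the 10 genes higher and 0 lower, where 13.3% of 4726 genes were higher and 15.1% lower. The median log2 ratio was 0.88, and -0.03 over all genes. The largest ratios were those of Sdf2l1, 4.22 (2.76 to 6.71), Hspa5, 2.40 (2.00 to 2.90), and Pdia3, 2.34 (1.72 to 3.22). Pdia4 was 2.05-fold (1.43 to 3.01), Calr 1.93-fold (1.58 to 2.37), Dnajb9 1.82-fold (1.15 to 2.96), Pdia6 1.79-fold (1.45 to 2.22) and Hsp90b1 1.65-fold (1.44 to 1.89). Herpud1 was at 1.18 (0.873 to 1.59) and Xbp1 at 0.975 (0.722 to 1.32), neither past 1.5-fold. Where each cell weighed equally (the mean of per-cell CPM), only Hspa5, Pdia3 and Sdf2l1 of the 8 stayed past 1.5-fold and the median was 0.46, and with cells thinned to 1000 UMIs 5 of the 8 did. Median depths were 4840 and 1218 UMIs per cell, and red blood cell markers summed to 42.3 and 19541 CPM. With the marker limit above, the 10 genes were at 5811 CPM in 109 HDM+APM cells and 2983 CPM in 159 APM cells.

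The size of the HDM difference was set side by side in the air-breathing and the dust-exposed mice as a ratio of the 2 ratios, dust over air. Summed over the 10 genes it was 0.864 (0.766 to 0.975). It lay below 1 for Hsp90b1, 0.696 (0.558 to 0.868), and for Herpud1, 0.559 (0.327 to 0.955), and above 1 for Calr, 1.5 (1.11 to 2.04). The value for Calr takes in its lower level in APM than in control, which was not seen with cells thinned, and its HDM+APM over APM difference no longer passed 1.5-fold with cells thinned or weighed equally. For the other 7 genes the interval included 1, for example Hspa5 at 0.756 (0.545 to 1.05). These intervals use a normal approximation on the log scale and hold only the counting error of 4 libraries.

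**Figure D3:**
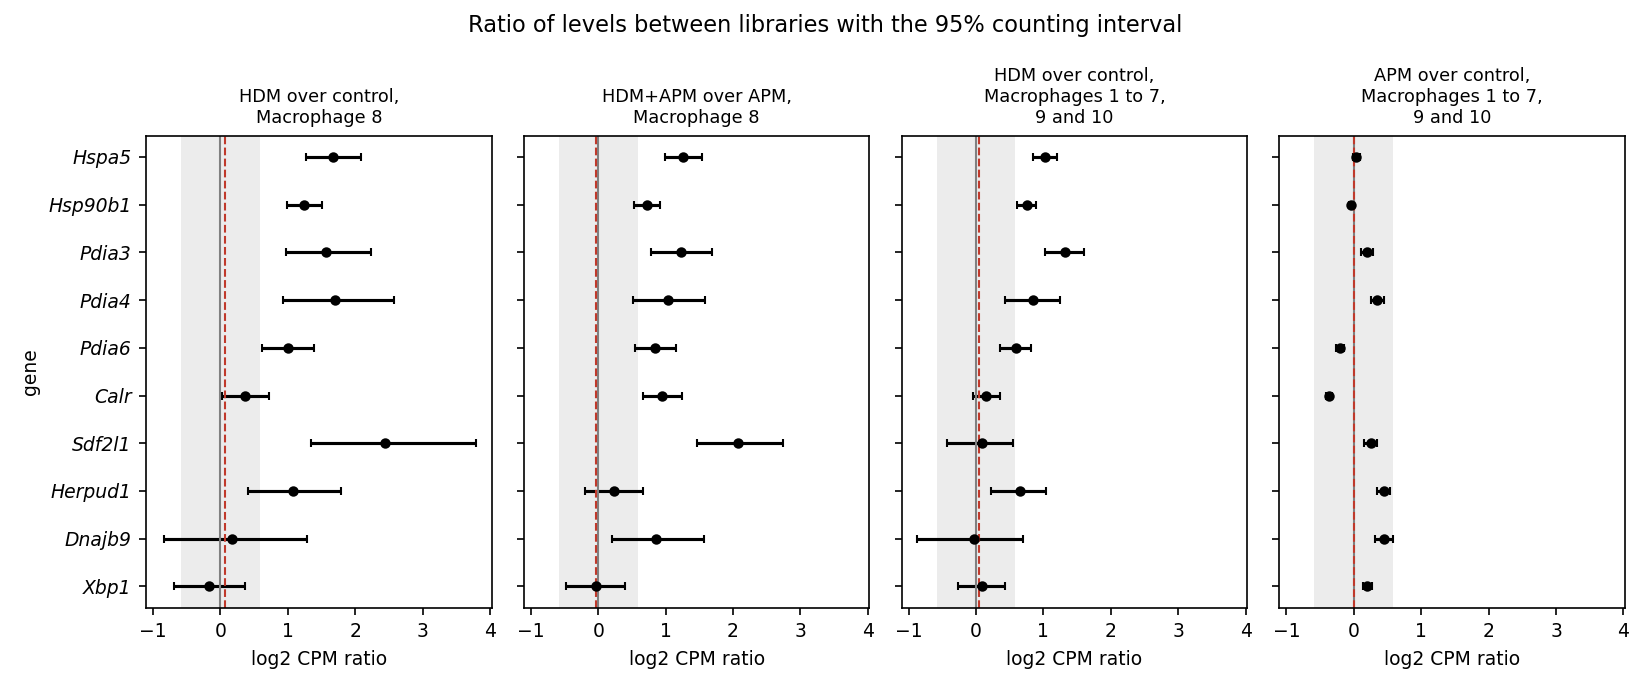
Points are log2 ratios of CPM between libraries for each gene, without a pseudocount, with the 95% counting interval. The grey band spans 1.5-fold either way and the dashed line is the median of all genes tested. In Macrophage 8 most genes lie to the right of the band in both HDM comparisons. In the other macrophages the HDM over control ratios are smaller than in Macrophage 8 for all genes but Xbp1. Against HDM+APM over APM in Macrophage 8 they are smaller for some genes and larger for others, such as Pdia3. The APM ratios of the pooled macrophages all lie inside the band.

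HDM+APM and HDM, which share the allergen and differ in dust, differed by less than 1.5-fold for 9 of these genes in Macrophage 8. Of the 10, 1 was higher and 0 lower, where 7.03% of 5176 genes were higher and 11.2% lower. The higher gene was Dnajb9, at 147 against 78.4 CPM, 1.88-fold (1.24 to 2.88). With cells thinned to 1000 UMIs its log2 ratio was 0.10, so that count is lost, and Hsp90b1 then passed 1.5-fold as lower, at -0.64. Sdf2l1 was at 1.36-fold (1.06 to 1.74), and Hsp90b1 was 1.31-fold lower (1.19 to 1.44) and Pdia6 1.25-fold lower (1.08 to 1.45). APM over control in Macrophage 8 (214 and 110 cells) gave 2 of the 10 higher and 0 lower, against 11.1% and 10.3% of 3262 genes. These were Sdf2l1, 25 against 7 UMIs, 1.75-fold (0.735 to 4.79), and Herpud1, 71 against 22 UMIs, 1.58-fold (0.968 to 2.68), and both intervals include 1. Neither stayed past 1.5-fold with a pseudocount of 50 CPM. Calr was 1.35-fold lower (1.02 to 1.78), but on the log2 scale its difference went from -0.43 to 0.05 with cells thinned.

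The macrophages outside cluster 8 were nearly absent from the HDM library, with 60 cells against 3776 in control, and those 60 also had more chaperone RNA. Over Macrophages 1 to 7, 9 and 10 pooled, 5 of the 10 genes were higher in HDM and 0 lower, where 11.5% of 10358 genes were higher and 9.17% lower. Hspa5 was at 1028 against 507 CPM, 2.03-fold (1.79 to 2.29). Pdia3 was at 400.0 against 160.0 CPM, 2.50-fold (2.04 to 3.04). Hsp90b1 at 1.69-fold, Pdia4 at 1.81-fold and Herpud1 at 1.57-fold were the other genes counted, and Pdia6 at 1.5-fold (1.28 to 1.76) lay at the threshold. Herpud1 was no longer past 1.5-fold with a pseudocount of 50 CPM, with median of ratios scaling or with equal weight per cell. Sdf2l1, at 141 against 133 CPM on 37 and 1982 UMIs, did not show the difference seen in Macrophage 8. Its log2 ratio was -1.13 when cells were thinned, which leaves still fewer UMIs. T cell markers summed to 99.0 CPM in the 60 cells and 1.67 CPM in the control cells, red blood cell markers to 2049 and 504 CPM and plasma cell markers to 49.5 and 17.1 CPM, and their part was not tested. The 46 such macrophages of the HDM+APM library, under the minimum of 50, had 971 CPM of Hspa5, 1511 CPM of Hsp90b1 and 5405 CPM of the 10 genes summed. Their Sdf2l1 was at 264 CPM (205 to 336), against 158 CPM (150 to 165) in the pooled APM macrophages.

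Between dust alone and control the summed level of the 10 genes in these macrophages was close. In 3501 APM and 3776 control cells it was 3440 and 3483 CPM, a ratio of 0.988 (0.975 to 1.00), and 0 of the 10 genes were higher or lower, against 0.78% and 0.496% of 10893 genes. Small differences were measured on 849 to 15055 UMIs per gene and library. The interval of the ratio lay above 1 for 6 of the 10 and below 1 for 2. Among the 10893 genes, which include those with as few as 20 UMIs, these shares were 20.4% and 16.4%. Calr was at 558 against 721 CPM, 1.29-fold lower (1.25 to 1.33), and Pdia6 was 1.15-fold lower (1.10 to 1.20). Herpud1 was at 175 against 129 CPM, 1.36-fold higher (1.28 to 1.45), Dnajb9 at 79.2 against 58.2 CPM, 1.36-fold higher (1.24 to 1.5), and Pdia4 1.27-fold higher (1.19 to 1.37). The differences in Calr and Pdia6 had the same sign in each of the 7 clusters that could be compared (Macrophages 1, 2, 3, 5, 7, 8 and 9), and that in Herpud1 in 6 of 7, all but Macrophage 7. With cells thinned the sign changed for Pdia6 in Macrophages 1 and 3 and for Calr in Macrophage 8. Pdia6 also changed sign in Macrophage 3 with median of ratios scaling and in Macrophage 8 with equal weight per cell, and Herpud1 in Macrophage 7 with both of these. Within clusters few of the genes passed 1.5-fold. In Macrophage 1 these were Pdia4, 1.56-fold higher (1.14 to 2.10), and Dnajb9, 1.61-fold higher (0.946 to 2.59), where 5.26% of genes were higher and 13.8% lower. In Macrophage 3 Sdf2l1 was 1.60-fold higher (1.36 to 1.86), where 1.54% were higher and 2.28% lower. With a pseudocount of 50 CPM none of these genes, nor Pdia4 in Macrophage 9, stayed past 1.5-fold, and with cells thinned Sdf2l1 in Macrophage 3 did not. In Macrophage 9 Pdia4 was 1.81-fold lower (0.959 to 3.57), where 7.9% were higher and 12.6% lower. None of the 10 passed in Macrophage 2 (1.58% higher and 2.08% lower), Macrophage 5 (1.07% and 2.85%) or Macrophage 7 (2.45% and 3.85%). Red blood cell markers summed to 5664 CPM in the pooled APM macrophages and 504 CPM in control, and their part was not tested.

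Xbp1 had another sign pooled than within most clusters. Pooled, it was at 288 CPM in APM and 250 in control, 1.15-fold higher (1.09 to 1.21). Within clusters its log2 ratio was negative in 6 of the 7 and 0.03 in Macrophage 7. The interval of the ratio lay below 1 only in Macrophage 5, at 0.855 (0.767 to 0.952), and included 1 in the other clusters. With cells thinned the sign of the Xbp1 ratio changed in Macrophages 3 and 7, with median of ratios scaling in Macrophage 3 and with equal weight per cell in Macrophage 7. The APM library held 1033 cells of Macrophage 4 and 689 of Macrophage 6, where Xbp1 was at 355 and 448 CPM, and the control library held 22 and 42 such cells. With equal cluster shares in both libraries the pooled log2 ratio of Xbp1 was -0.23 instead of 0.19.

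**Figure D4:**
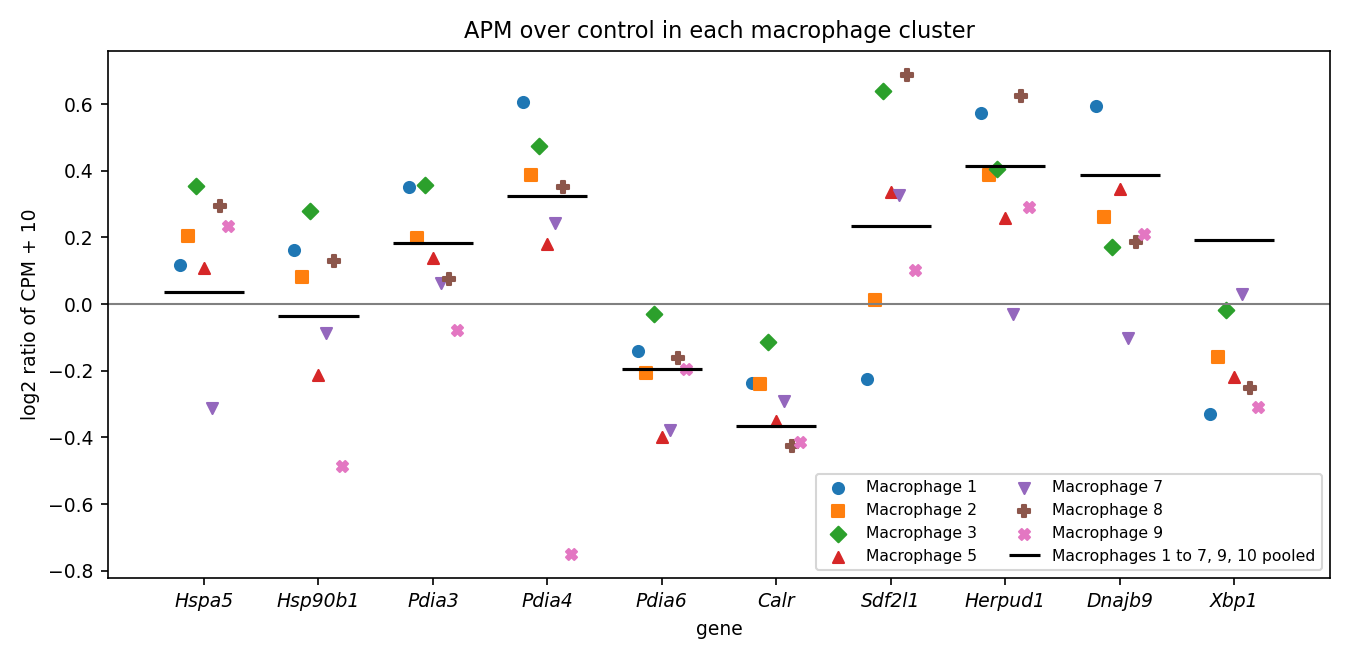
Symbols are log2 ratios of CPM + 10, APM over control, for each gene in the 7 macrophage clusters with at least 50 cells in both libraries, and black bars are the same over Macrophages 1 to 7, 9 and 10 pooled. For Calr and Pdia6 all 7 symbols lie below 0 (Pdia6 in Macrophage 3 not with median of ratios scaling), and for Xbp1 the bar at 0.19 lies above all of them, the highest being 0.03.

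The spread between cells was read with each cell thinned to 1000 UMIs, leaving out 41 control, 18 HDM, 73 APM and 24 HDM+APM cells of Macrophage 8 that were shallower. The median cell held 3 UMIs of the 10 genes in control, 6 in HDM, 3 in APM and 6 in HDM+APM. At least 10 such UMIs were found in 32 of 121 HDM cells, 26.4% (exact binomial 95% interval 18.8 to 35.2), in 12 of 86 HDM+APM cells, 14.0% (7.42 to 23.1), in 3 of 69 control cells, 4.35% (0.906 to 12.2), and in 6 of 141 APM cells, 4.26% (1.58 to 9.03). Unthinned, per 1000 UMIs, these shares were 20.1, 8.18, 3.64 and 4.67%. The lowest 10% of cells held at most 1 UMI in HDM and 0.8 in control, and the highest 10% at least 13 and 8. The libraries thus differed in the middle and upper part of the distribution. The lowest 10% sit at the floor of the counts and could hardly show a difference. At most 1 UMI was held by 17.4% of HDM and 29.0% of control cells. Outside cluster 8, 18.3% of the 60 HDM macrophages (9.52 to 30.4) and 1.30% of 3776 control macrophages (0.961 to 1.71) held at least 10, and unthinned 8.33% and 0.344%. In HDM T cells it was 0 of 367, and the limit of 3 counts set for a count of 0 comes to 0.817%.

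**Figure D5:**
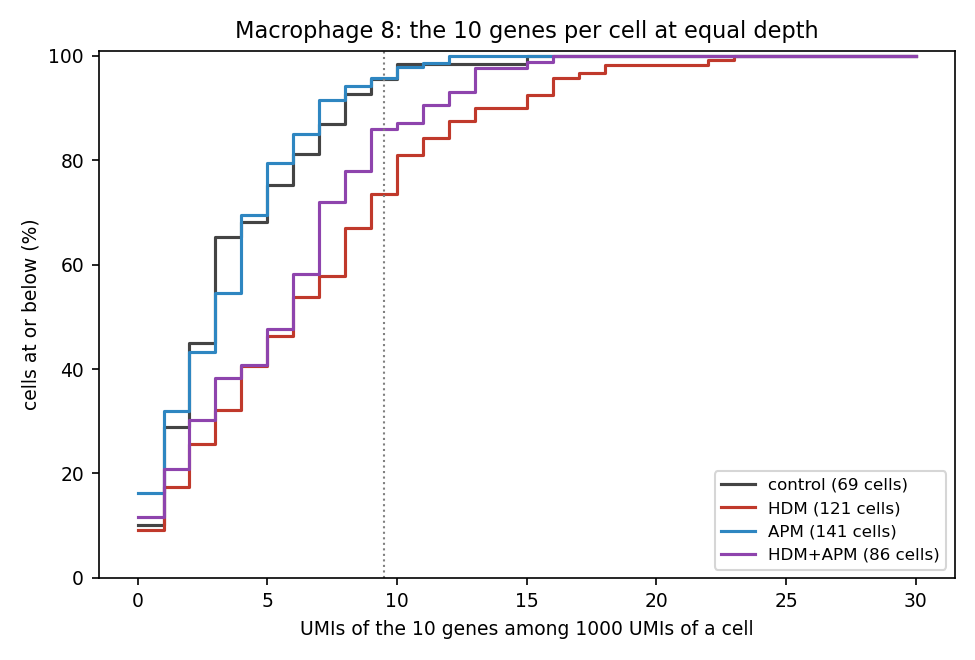
Lines give the share of Macrophage 8 cells (vertical axis, %) with at most a given number of UMIs of the 10 genes among 1000 UMIs of the cell (horizontal axis), for each library. The dotted line marks the step to 10 UMIs, past which 26.4% of HDM, 14.0% of HDM+APM, 4.35% of control and 4.26% of APM cells lie.

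The rest of the ER machinery was read with 8 further lists of pathway genes, from sensors to vesicle transport. In Macrophage 8, HDM over control, 27 of 70 tested genes of these lists were higher (38.6%) and 5 lower (7.14%), beside 22.6% and 15.2% of all genes. None of the sensor genes reached the UMI minimum in this comparison, so the 70 come from the other lists. HDM+APM over APM gave 29 of 74 higher (39.2%) and 5 lower (6.76%), beside 13.3% and 15.1%. In the pooled other macrophages HDM over control gave 20 of 90 higher and 2 lower, beside 11.5% and 9.17% of all genes. APM over control gave 1 of 91 higher and 0 lower, beside 0.78% and 0.496%, the 1 being Nupr1, a stress-induced gene of the ATF4 branch, at 66.8 against 40.4 CPM, 1.66-fold (1.48 to 1.85). Within clusters, the list of this branch had 4 of 10 tested genes higher and 1 lower in Macrophage 9, beside 7.9% and 12.6% of all genes. In the other clusters compared 0 or 1 were higher, and Macrophage 7 had 2 lower. Nupr1 was 4.77-fold higher (2.9 to 8.2) in Macrophage 9 and 4.31-fold (3.2 to 6.0) in Macrophage 8. Ddit3, of the same list, was 2.28-fold higher (1.82 to 2.85) in Macrophage 3 and 1.72-fold (1.28 to 2.31) in Macrophage 2.

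Other ER chaperones and cochaperones had 7 of 11 tested genes higher and 0 lower in HDM over control. Creld2, which binds folding intermediates, was at 152 against 50.9 CPM, 3.00-fold (1.44 to 7.21), and Calu, a calcium-binding protein of the secretory pathway, at 133 against 50.9 CPM, 2.61-fold (1.24 to 6.32). In HDM+APM over APM the list had 6 of 10 higher and 1 lower, led by Dnajc3, the BiP cochaperone p58IPK, at 224 against 71.6 CPM, 3.12-fold (1.98 to 5.13). Of the disulfide enzymes outside the 10, 1 of 6 and 2 of 7 were higher. Txndc5, a thioredoxin-domain protein of the ER, was at 86.6 against 9.34 CPM in HDM+APM over APM, on 43 and 3 UMIs, 9.27-fold (2.97 to 46.7).

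The translocon, through which chains enter the ER, had 5 of 15 genes higher and 1 lower in HDM over control and 8 higher and 1 lower of 15 in HDM+APM over APM. Sec61b, a subunit of the channel, was at 1084 against 413 CPM, 2.62-fold (2.02 to 3.45), and Ssr4, of the translocon-associated complex, at 389 against 181 CPM in HDM+APM over APM, 2.15-fold (1.60 to 2.94). N-glycosylation genes had 6 of 10 higher and 1 lower, among them the oligosaccharyltransferase subunit Stt3b at 93.6 against 38.1 CPM, 2.46-fold (1.04 to 7.06), and 5 of 10 higher in the dust-exposed pair. ER to Golgi transport had 5 of 9 higher, with the coat protein gene Sec23b at 82.7 against 25.4 CPM, 3.25-fold (1.17 to 12.6), on 38 and 4 UMIs.

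ER-associated degradation had 3 of 14 genes higher and 2 lower in HDM over control, a share of higher genes near the 22.6% of all genes, and 3 higher and 1 lower of 14 in HDM+APM over APM. Its ubiquitin ligase Syvn1 had 27 UMIs in HDM and 1 in control, a ratio of 9.25 (1.52 to 379), and was at 60.4 against 18.7 CPM, 3.24-fold (1.33 to 9.51), in HDM+APM over APM. The PERK and ATF4 branch, with few genes tested, had 0 of 5 higher and 1 lower, and 1 of 6 higher and 2 lower in HDM+APM over APM. The lower gene was Nupr1, at 58.8 CPM in HDM against 299 in control, 5.08-fold lower (3.10 to 8.49), and at 74.5 CPM in HDM+APM against 1289 in APM, 17.3-fold lower (12.3 to 24.9). In the latter comparison the amino acid transporter subunit Slc3a2 was also 2.87-fold lower (2.01 to 4.15). In a separate list, genes of MHC class I peptide loading, whose assembly uses Calr and Pdia3, had 4 of 6 higher and 0 lower in HDM over control. Among them H2-K1 was at 2915 against 909 CPM, 3.21-fold (2.70 to 3.84). Cytosolic heat shock genes and genes induced by cell dissociation had 1 of 12 higher and 5 lower.

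Genes with an ERSE or ERSE-II were read in the same comparisons, whether or not they were on a list. The RefSeq windows gave 49 such genes, of which 24 were in the matrix and 15 were tested in Macrophage 8 for HDM over control, with 9 higher and 0 lower. Without the members, 5 of 10 were higher, beside 22.6% of all genes, and all 5 were ER genes of the lists above. HDM+APM over APM gave 8 of 16 higher, and 4 of 11 without the members, beside 13.3% of all genes. Canx, the membrane lectin chaperone calnexin, was at 845 against 394 CPM in HDM over control, 2.14-fold (1.64 to 2.85), and at 683 against 507 CPM in HDM+APM over APM, 1.35-fold (1.11 to 1.63). Nucb1 and Rbm39, which hold an element and are on none of the lists, were not counted as different in either comparison.

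In T cells the genes were low and their counts small. HDM+APM over HDM (136 and 493 cells) had 1 of the 10 higher and 0 lower, where 7.88% of 4949 genes were higher and 12.3% lower. The higher gene was Herpud1, on 21 and 24 UMIs, at 71.8 against 31.7 CPM, 2.26-fold (1.20 to 4.24), and it fell short of 1.5-fold with a pseudocount of 50 CPM and when cells were thinned. The summed level was 1076 against 865 CPM, 1.24-fold (1.08 to 1.42). HDM+APM over APM (136 and 52 cells) gave 2 of the 7 genes tested higher and 3 lower, where 18.7% of 2074 genes were higher and 24.8% lower, and the interval of each of the 7 included 1.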

How the data were processed

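The authors deposited raw UMI counts for 9925 cells and 13838 genes, and a table of each cell's library and cluster. The chemistry was 10x 3' v2 per the labels' protocols. Cell Ranger 2.2.0 and Seurat 2.3.4 were used on mm10, per the submitters' processing notes. All deposited cells were kept, including 23 cells whose coarse type is epithelial and whose refined cluster is a macrophage one. The members and the gene lists were chosen with earlier results of these data known. UMIs were summed per cluster and library with Python 3.11.15 and scaled to CPM. Levels carry exact Poisson intervals, ratios exact conditional binomial intervals and shares of cells Clopper-Pearson intervals, each at 95%. The calculation of ratios was tested on simulated Poisson counts. These hold no variation between cells, so that test does not cover it. The pseudocount was 10 CPM. Beside the members, the text names the 2 genes per list and comparison with the largest log2 ratio in size, or 1 of them, and the 5 genes with the most similar profile. Canx, Nucb1 and Rbm39 were chosen after their values were seen. Alternatives were other pseudocounts, no UMI minimum, median of ratios scaling, equal weight per cell, thinning, subtraction of 5% free RNA and equal cluster shares. Those without cells of coarse type epithelial and with a limit on epithelial and red blood cell markers were added after seeing the data.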

Additional observations from a re-analysis of the deposited data

Results flagged for a closer look

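Pdia4 differed in direction between macrophage clusters in APM over control. Its log2 ratio was 0.61 in Macrophage 1, on 49 APM and 473 control UMIs, and -0.75 in Macrophage 9, on 15 and 34 UMIs, where the interval of the ratio (0.28 to 1.04) includes 1. Neither stayed past 1.5-fold with a pseudocount of 50 CPM, and the difference between the clusters was not tested.

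Pdia6 differed in direction between cell types in HDM+APM over APM. Its log2 ratio was 0.83 in Macrophage 8, on 338 and 122 UMIs, and -0.82 in T cells, on 20 and 8 UMIs with an interval of the ratio of 0.226 to 1.40. This difference was not tested either.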

How the results depend on the processing

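Of 1327 log2 values under an alternative 39 changed sign, 3 medians and 36 single genes, 17 of them with cells thinned, and none of the 39 was past 1.5-fold as reported. The medians were those of APM over control in Macrophage 5 (0.12 to -0.074) and Macrophage 8 (0.16 to -0.12) and of HDM+APM over APM in T cells (-0.24 to 0.32), all when thinned. In Macrophage 8, HDM over control, 7 genes were higher and 0 lower under each alternative run. In HDM+APM over HDM the equal weight per cell gave 2 higher and 1 lower, and thinning 0 higher and 1 lower. For HDM+APM over APM the median log2 ratio was 0.46 with equal weight per cell. The APM over control median of the pooled macrophages was 0.12 when thinned. HDM over control in the pooled macrophages had 1 lower gene when thinned and 1 with equal cluster shares. In T cells, HDM+APM over HDM had 0 higher with a pseudocount of 50 CPM and 0 when thinned, and HDM+APM over APM had 4 higher without a UMI minimum and 1 lower when thinned. Of the other values, 215 summary values and 1152 values of single genes kept within the spread set for them, and 51 values of single genes moved past it. The cause was not tested.

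Leaving out a replicate was not run, since each group is 1 library, and equal cluster shares apply to the pooled macrophages only. No paired analysis was possible because each group has 1 library. Few UMIs stand behind the T cells of the APM library, 52 cells, and Macrophage 8 of the control library, where Sdf2l1 had 7 UMIs.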
